A study of Mus musculus with 4 samples.

Results

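The genes described here encode 35 proteins that silence retroelements, repeats and germline genes in mouse cells, out of 24190 gene symbols in the deposited tables. They were chosen by symbol, as components of H3K9 methylation, HP1, CAF-1, histone H3.3 deposition, LSD1 and HDAC complexes, non-canonical PRC1 and the Polycomb core. Under these symbols 34 had a row. Resf1, which supports the silencing of retroelements by SETDB1, was listed under the older symbol 2810474O19Rik, so its values are given but it enters no count.

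Poly-A RNA was sequenced from ES-E14TG2a, a male mouse embryonic stem cell (ESC) line grown in serum-free medium with a MEK inhibitor at 0.8 μM and a GSK3β inhibitor at 3.3 μM. Each of 2 stable clonal lines held the Zscan4c promoter, ahead of GFP in the GFP-only line and ahead of a GFP-Zscan4c fusion in the fusion line. Both were sorted into GFP-negative cells, labelled pluripotent, and GFP-positive cells, labelled 2C-like. Each of the 4 populations was 1 library, so no value has a replicate error and no test within a line is possible. The design compares GFP-positive with GFP-negative cells in each line, and one construct with the other in cells of the same GFP status. Since each construct is 1 clone, construct and clone cannot be told apart.

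In ESCs, KRAB zinc finger proteins bring TRIM28 and the methyltransferase SETDB1 to retroelements, where methylated H3K9 is bound by HP1 proteins and read by the HUSH complex. CAF-1 places histones on newly replicated DNA, and its loss in ESC cultures is known to raise the number of cells that transcribe the genes of the 2-cell embryo. Non-canonical PRC1 with PCGF6, L3MBTL2, MGA, MAX and E2F6 represses germline genes, and PRC2 with EZH2, EED and SUZ12 methylates H3K27 at developmental genes.

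Values are TPM, a share of transcripts scaled by transcript length, summed per gene, and ratios are differences of log2(TPM + 1). A share of RNA in a sorted population does not tell fewer cells of a type from less RNA per cell. The label check held in both lines: Zscan4c was at 9.24 and 497 TPM in GFP-negative and GFP-positive cells of the GFP-only line, and at 4.11 and 366 TPM in those of the fusion line. Zscan4c there includes any reads of the fusion that align to the gene. Pou5f1, which defines pluripotent cells, was at 1075 to 1447 TPM in the 4 libraries. Of 7 pluripotency genes read, only Klf4 was 2-fold apart between the GFP populations, and in opposite directions in the lines. It was at 187 and 69.5 TPM in GFP-negative and GFP-positive cells of the GFP-only line. In those of the fusion line it was at 40.1 and 118 TPM. Of 4 markers each of primitive endoderm, trophectoderm and fibroblasts, 2, 2 and 3 had a row. Their sums were higher in both GFP-positive libraries: 2.22 and 3.07 TPM against 0 and 0.44 for primitive endoderm, 2.64 and 3.42 against 0 and 0.05 for trophectoderm, and 11.9 and 7.42 against 0 and 0.11 for fibroblasts. Almost all of this was Gata4, Eomes and Thy1, each at 0 in both GFP-negative libraries, while the collagen genes of fibroblasts were at or near 0 everywhere. The part of such cells in the results was not tested.

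The GFP-negative library of the GFP-only line stood apart. There 48.4% of all symbols were listed at 0, against 11.6% to 19.5% in the other libraries, and 5 of 34 silencing genes were at 0 there and none elsewhere. These zeros are not read as absence. Among genes at 5 TPM or more in each of the other libraries, 4 of 33 silencing genes were listed at 0 in that library, against 17.7% of all such genes. They were Suv39h2, Rcor1, Zmym2 and E2f6. Suv39h1, under 5 TPM in one other library, was the fifth gene at 0. A further 3 genes, Setdb1, Cbx1 and Morc3, were above 0 but under 0.25 of the lowest other library, which makes 7 of 33 with the zeros, against 23.8% of all genes.

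**Figure D1:**
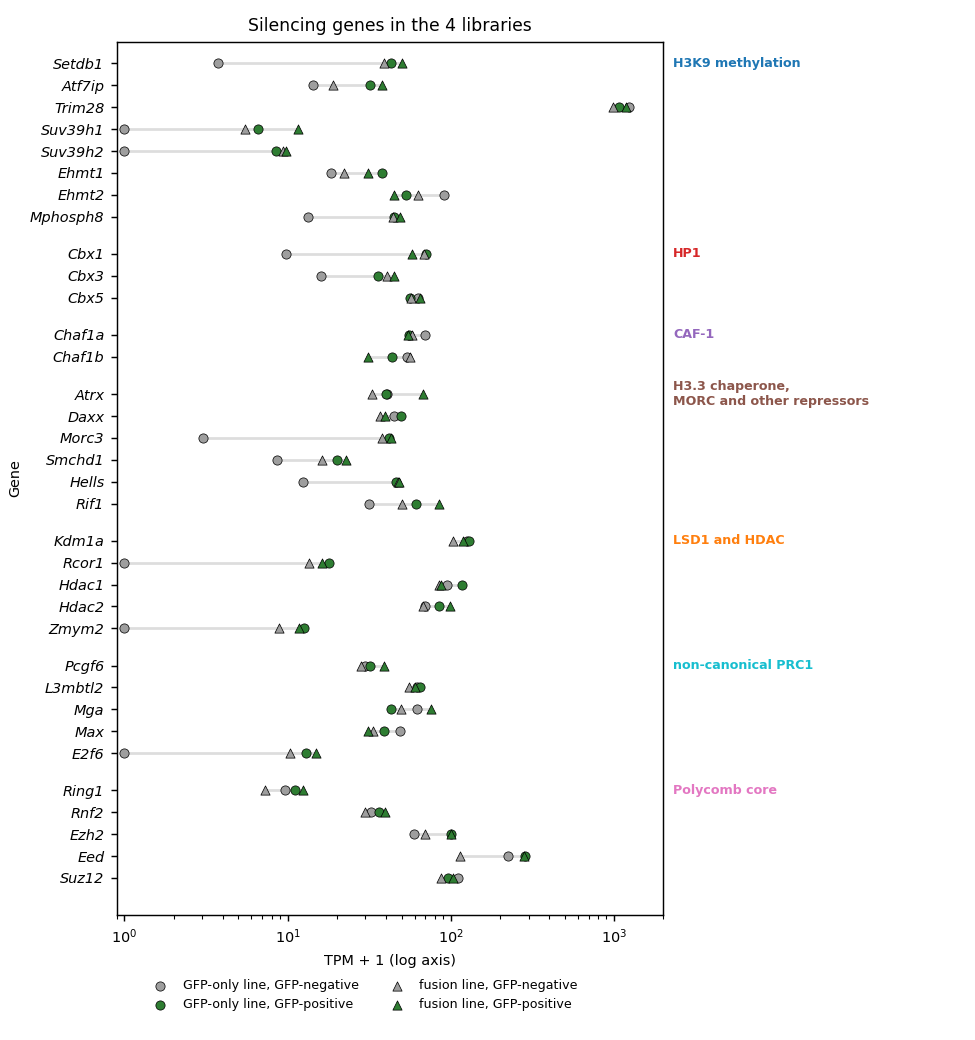
TPM + 1 on a log axis for the 34 silencing genes with a row, 1 point per library (circles, GFP-only line; triangles, fusion line; grey, GFP-negative; green, GFP-positive). The grey circle lies far to the left of the other 3 points for Setdb1, Suv39h1, Suv39h2, Cbx1, Morc3, Rcor1, Zmym2 and E2f6, while for Trim28, Cbx5, Kdm1a and Suz12 all 4 points lie close together.

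Outside that library the silencing genes were at similar levels in every population. Of 33 genes at 5 TPM or more in the other libraries, 30 lay within 2-fold across all of them, as did 91.4% of all such genes. The exceptions were Atf7ip, Atrx and Eed. Between the GFP-positive populations of the 2 lines, no silencing gene was 2-fold or more higher (5.71% of all genes) or lower (4.05%) with the fusion, and the ratios ran from -0.47 to 0.81 with a median of 0.11, against 0.05 over all genes. Between the GFP-negative populations 10 of 33 genes were 2-fold or more higher in the fusion line, against 30.1% of all genes, and none was lower (8.49%). Restricted to genes above 0 in both GFP-negative libraries, 6 of 29 were higher, against 14.9%.

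Between GFP-positive and GFP-negative cells of the GFP-only line, 14 of 34 silencing genes were 2-fold or more higher and none was lower, against 33.2% and 7.48% of all genes at 5 TPM or more in either library. Above 0 in both libraries the count was 9 of 29, against 17.3%, and for lower genes 0, against 9.05%. In the fusion line 4 of 34 were 2-fold or more higher, Atf7ip, Suv39h1, Atrx and Eed, against 8.23% of all genes, and none was lower, against 3.14%. The median ratio was 0.32 in the GFP-only line (all genes 0.19) and 0.27 in the fusion line (all genes 0.14). With median-ratio scaling, which sets a typical gene equal across libraries, the fusion line's median was 0.12 (all genes -0.01). Summed over protein-coding transcripts alone, 15 of 33 genes were 2-fold higher in the GFP-only line (47.7% of all genes) and none lower (3.75%), and in the fusion line 1 was higher, Eed (7.9%), and 1 lower, Chaf1b (2.84%). On these transcripts the median of the GFP-only line was 0.55, below that of all genes at 0.72. Within the fusion line 26 of 34 silencing genes, 76.5%, stayed within 1.5-fold, against 78.9% of all genes.

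Directions in the fusion line depended on scaling where ratios were small. There 29 genes were higher and 5 lower in GFP-positive cells, and 67.8% of all genes were higher. Scaling the libraries by median ratios, which moved the median of all genes from 0.14 to -0.01, left 22 higher and 12 lower, against 48.3% of all genes higher. The 7 genes whose direction changed were Cbx3, Daxx, Hdac1, Hells, L3mbtl2, Mphosph8 and Suv39h2. Quantile normalization left 24 higher and 10 lower, against 45.2%.

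Across both lines, 24 of 34 genes were higher in GFP-positive cells by any amount, against 45.4% of all genes, and 4 were lower, Ehmt2, Chaf1a, Chaf1b and Max, against 16.4%. The 24 became 17 with median-ratio scaling, against 35% of all genes, and 17 with quantile normalization, against 27.6%. Atf7ip and Suv39h1 were 2-fold or more higher in both lines, 2 of 34 genes against 4.11%, and none was 2-fold lower in both, against 0.654%. A limma model had GFP status and line as terms, and its only residual was the difference of the GFP ratio between the lines. Each gene's variance was drawn towards that of genes at a similar level, so an SE is not that gene's own spread alone. The model called 0 of 34 genes at an adjusted p under 0.05, against 0% of 14379 genes. At an unadjusted p under 0.05 it called 4 of 34, against 6.76% of all genes. These were Rif1, Ezh2, Atf7ip and Ehmt2. Each line was a clone without replicate libraries, so the error behind these p-values rests only on how far the GFP ratios differed between the lines.

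**Figure D2:**
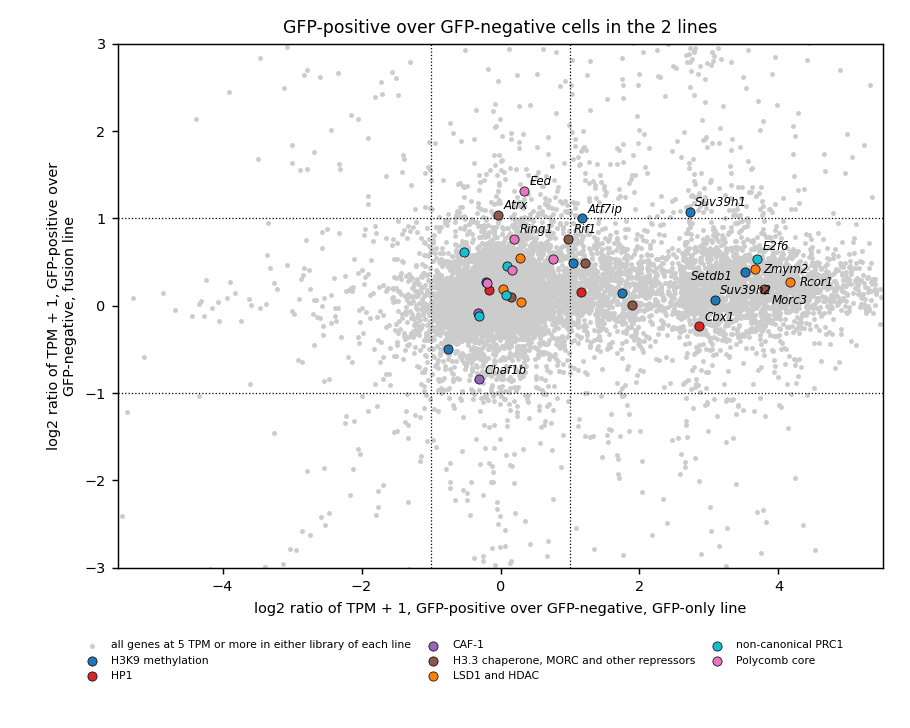
Ratio of GFP-positive over GFP-negative cells in the GFP-only line (x axis) and in the fusion line (y axis), on the log2(TPM + 1) scale, for the 34 silencing genes (coloured by group) and all 10245 genes at 5 TPM or more in either library of each line (grey, 324 of them outside the axes). Dotted lines mark 2-fold; silencing genes spread from -0.76 to 4.17 along x but only from -0.84 to 1.32 along y.

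Among the genes of H3K9 methylation, the retroelement methyltransferase and its cofactor differed in which libraries were low. Setdb1 (chr3:95323525-95357202, minus strand, GRCm38) was at 2.77 and 42.1 TPM in GFP-negative and GFP-positive cells of the GFP-only line and at 37.7 and 49.5 TPM in those of the fusion line. Only the GFP-negative cells of the GFP-only line were low, and the ratios were 3.52 and 0.38. Atf7ip (chr6:136506167-136610862, plus strand), whose product keeps SETDB1 stable in the nucleus, was at 13.3 and 31.2 TPM in the GFP-only line and at 17.9 and 36.8 TPM in the fusion line. Both GFP-positive libraries lay above both GFP-negative ones, with a ratio of 1.17 in the GFP-only line and a limma estimate of 1.09 ± 0.30 (SE; adjusted p = 0.574). In the fusion line its TPM were 2.06 times as high in GFP-positive cells, which puts the log2 ratio on the 2-fold threshold, and median-ratio scaling gave 0.85.

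Trim28, the corepressor that KRAB zinc finger proteins recruit, had the highest level of the group at 1245, 1076, 980.2 and 1184 TPM in the order GFP-negative and GFP-positive of the GFP-only line, then of the fusion line; every set of 4 values from here on is in this order, and the first library is the GFP-negative one of the GFP-only line. Its ratios of -0.21 and 0.27 differed in sign between the lines. Mphosph8, the chromodomain subunit of HUSH, was at 12.4, 44.0, 43.0 and 47.6 TPM, low in the first library only. Resf1, read under its older symbol, was at 19.0, 22.6, 24.7 and 36.0 TPM, with ratios of 0.24 and 0.52. A 466-nt transcript with a retained intron held 79.3% of it in the first library. Its coding transcripts were at 2.82, 21.8, 21.7 and 32.8 TPM, with ratios of 2.58 and 0.58.

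The SUV39H enzymes, which trimethylate H3K9 at pericentric repeats, were the lowest of the group. Suv39h1 (chrX:8061171-8074760, minus strand) was at 0, 5.61, 4.45 and 10.5 TPM. Its ratio was 1.08 in the fusion line, but 4.05 TPM of the GFP-positive value there came from a transcript with a retained intron, and the protein-coding transcripts alone gave 0.47. Suv39h2 was at 0, 7.46, 8.35 and 8.82 TPM, but most of this came from a transcript subject to nonsense-mediated decay, at 0, 4.43, 6.67 and 7.95 TPM. Its coding transcripts summed to 0, 3.03, 1.68 and 0.87 TPM, with a ratio of -0.52 in the fusion line.

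The partners of the G9a-GLP dimethylase went in opposite directions. Ehmt1 (GLP) was at 17.4, 36.8, 21.2 and 30.2 TPM, higher in both GFP-positive libraries, with ratios of 1.04 and 0.49. Ehmt2 (G9a) was at 89.3, 52.5, 62.0 and 43.6 TPM, lower in both, with ratios of -0.76 and -0.50 and a limma estimate of -0.63 ± 0.19 (SE; adjusted p = 0.647). Neither difference passed the test.

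Of the HP1 proteins, which bind methylated H3K9, Cbx5 (HP1α) was even at 61.9, 55.1, 56.3 and 63.9 TPM. Cbx1 (HP1β; chr11:96789127-96808640, plus strand) was at 8.74, 69.4, 67.4 and 57.2 TPM, and Cbx3 (HP1γ) at 15.1, 34.9, 39.5 and 44.1 TPM. Both were low in the first library. Their ratios were 2.85 and 1.16 in the GFP-only line and -0.23 and 0.15 in the fusion line, and this difference between the lines could not be tested.

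Both listed CAF-1 subunits were lower in GFP-positive cells of both lines, and neither passed the limma test. Chaf1a, the large subunit, was at 68.6, 54.8, 57.1 and 54.0 TPM, with ratios of -0.32 and -0.08. Chaf1b, the middle subunit, was at 53.0, 42.4, 54.9 and 30.3 TPM, with ratios of -0.31 and -0.84 and a limma estimate of -0.58 ± 0.25 (SE; adjusted p = 0.683). The 2 GFP-positive values lay below the 2 GFP-negative ones for both genes. For Chaf1b, the GFP-positive value of the GFP-only line lay nearer to a GFP-negative value than to the other GFP-positive one.

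Within Chaf1b (chr16:93883901-93906115, plus strand) the leading listed transcript was not the same in GFP-negative and GFP-positive cells. A coding transcript of 1922 nt was at 45.6, 0.10, 47.0 and 2.03 TPM, which is 86.0%, 0.2%, 85.6% and 6.7% of the gene. A coding transcript of 1894 nt was at 0, 28.9, 3.61 and 18.7 TPM, or 0%, 68.1%, 6.6% and 61.8%. The first was high in both GFP-negative libraries and the second in both GFP-positive ones. In GENCODE both have 14 exons, of which 11 are identical, and the same coding length of 1716 bases. The second exons start 33 bases apart, the transcripts start 23 bases apart and end 38 bases apart, so the assignment rests on few bases. Another transcript, with a retained intron and 2828 nt long, was at 0.39, 6.24, 0.22 and 5.92 TPM, again higher in both GFP-positive libraries. On coding transcripts alone Chaf1b was at 48.1, 33.8, 52.2 and 21.7 TPM, and the ratio in the fusion line became -1.23.

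Shifts of a listed transcript share in both lines were not particular to Chaf1b, but how many genes shifted as far as Chaf1b was not counted. A transcript share moved by 20 percentage points or more the same way in both lines in 3 of 25 silencing genes with several listed transcripts and 5 TPM or more in every library, Chaf1b, Atf7ip and Rif1, against 10.2% of 4261 genes. In Atf7ip the longest coding transcript listed, 8059 nt, was at 0, 20.7, 0 and 21.4 TPM. It was thus listed only in GFP-positive cells, while GFP-negative cells held other transcripts. In the GFP-only line these were almost all a 3226-nt transcript with a retained intron, at 12.8, 1.09, 0.93 and 2.57 TPM, and in the fusion line coding transcripts of 3018 nt, at 0, 8.05, 8.43 and 9.78 TPM, and of 712 nt, at 0, 0, 6.54 and 0 TPM. Summed over coding transcripts, Atf7ip was at 0, 29.5, 16.9 and 33.9 TPM.

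Rif1 (chr2:52072832-52122383, plus strand), which sets replication timing and represses retroelements and genes of the 2-cell embryo in ESCs, was at 30.4, 60.6, 49.0 and 84.2 TPM. It was higher in both GFP-positive libraries, with ratios of 0.97 and 0.77, and had the smallest limma p of the silencing genes (estimate 0.87 ± 0.19, SE; adjusted p = 0.460). The 8509-nt coding transcript of Rif1, the longest listed, was at 0, 0, 0 and 23.8 TPM, so that only the GFP-positive library of the fusion line had any. A coding transcript of 2784 nt was at 27.9, 42.3, 33.1 and 38.5 TPM, a share of the gene of 91.9%, 69.8%, 67.5% and 45.8%, smaller in the GFP-positive cells of each line. A retained-intron transcript of 2789 nt was at 0, 16.5, 13.2 and 20.03 TPM.

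**Figure D3:**
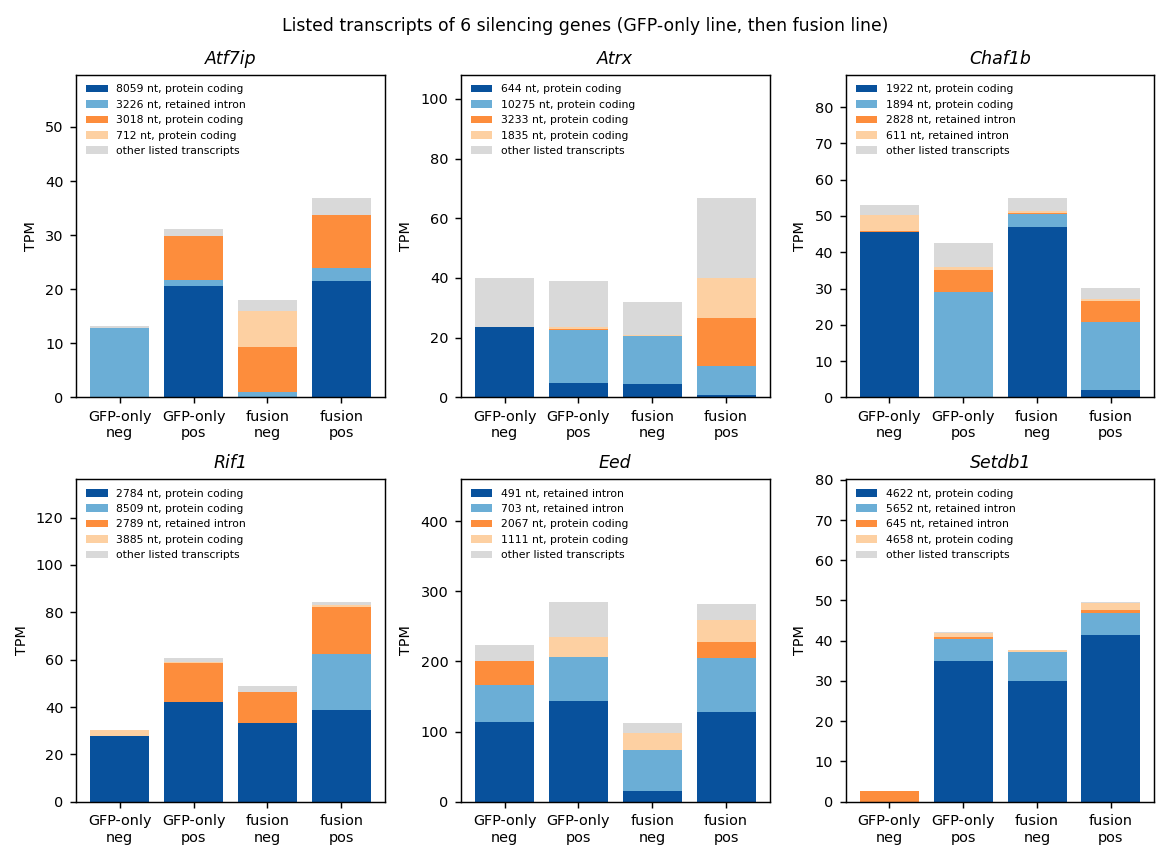
TPM of the 4 leading listed transcripts (colours, with length and GENCODE type) and of all others (grey) stacked for 6 silencing genes in the 4 libraries (neg, GFP-negative; pos, GFP-positive). In Chaf1b the 1922-nt transcript fills the bars of GFP-negative cells and the 1894-nt one those of GFP-positive cells, and Setdb1 has almost no bar in GFP-negative cells of the GFP-only line.

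The H3.3 chaperone pair ATRX and DAXX places histone H3.3 at repeats and telomeres. Atrx (chrX:105797615-105929403, minus strand) was at 39.9, 39.0, 31.9 and 66.8 TPM, high only in GFP-positive cells of the fusion line, with ratios of -0.03 and 1.04. The difference did not lie in its longest listed transcript, of 10275 nt, which was at 0, 17.7, 15.8 and 9.79 TPM. Most of it lay in shorter coding transcripts, of 3233 nt at 0, 0.53, 0 and 16.1 TPM and of 1835 nt at 0, 0.67, 0.60 and 13.6 TPM, and part in a retained-intron transcript of 1838 nt at 3.73, 2.63, 0.46 and 11.0 TPM. On coding transcripts alone the ratio was 0.91, under 2-fold. Daxx was even at 43.9, 48.7, 35.7 and 38.5 TPM.

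Among other repressors, Morc3, an ATPase that silences endogenous retroviruses, had the lowest value in the first library relative to the rest, at 2.03, 41.0, 36.8 and 42.0 TPM. Smchd1, which acts on the inactive X and on repeat clusters, was at 7.58, 19.0, 15.2 and 21.7 TPM, higher in both GFP-positive libraries. Hells, a remodeller needed for DNA methylation of repeats, was at 11.4, 45.4, 46.7 and 47.1 TPM. Apart from the first library, Morc3 and Hells were nearly level, while Smchd1 kept a ratio of 0.49 in the fusion line.

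Of the LSD1 and HDAC genes, the enzymes were even and their partners were listed at 0 in the first library. Kdm1a (LSD1) was at 124, 128, 102 and 117 TPM, with ratios of 0.04 and 0.20. Hdac1 was at 94.2, 116, 84.0 and 86.6 TPM and Hdac2 at 68.6, 83.7, 66.4 and 97.4 TPM. All 3 enzymes lay within 1.5-fold between the GFP populations of each line. Rcor1, the scaffold that joins LSD1 to the HDACs, was at 0, 17.01, 12.4 and 15.2 TPM, and Zmym2, a zinc finger protein of the same complex, at 0, 11.6, 7.80 and 10.8 TPM. The ratios in the fusion line were 0.27 and 0.42.

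Within non-canonical PRC1, Pcgf6, the subunit that defines the complex, was at 28.8, 30.8, 27.3 and 37.9 TPM. L3mbtl2, which binds chromatin through MBT repeats, was even at 60.8, 64.0, 54.1 and 59.1 TPM. Its coding transcripts were less so, at 43.3, 52.2, 25.0 and 39.4 TPM, with ratios of 0.26 and 0.64. E2f6, the DNA-binding repressor, was at 0, 11.9, 9.40 and 14.0 TPM. None of these was 2-fold apart in the fusion line.

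The dimer that binds E-boxes for this complex was uneven in its larger partner only. Max was at 47.7, 38.2, 32.4 and 29.9 TPM, slightly lower in both GFP-positive libraries. Mga was at 60.9, 42.2, 48.4 and 74.9 TPM, lower in GFP-positive cells of the GFP-only line (-0.52) and higher in those of the fusion line (0.62). Non-coding transcripts held most of Mga, and its protein-coding transcripts summed to 0, 9.99, 16.4 and 19.4 TPM, so that on these the sign in the GFP-only line was positive.

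On gene sums the Polycomb core was above 0 in every library, but the coding transcripts of Ring1 were at 0 in the first library. In the fusion line all 5 genes had the higher value in GFP-positive cells, and so did 4 of 5 in the GFP-only line, Suz12 being the exception, against 67.8% and 59.2% of all genes. The medians were 0.54 and 0.20. Quantile normalization left 3 of 5 higher in the GFP-only line, Ring1 changing sign. Ezh2, the H3K27 methyltransferase, was at 58.5, 99.2, 68.3 and 99.6 TPM, with ratios of 0.75 and 0.54 and a limma estimate of 0.65 ± 0.17 (SE; adjusted p = 0.557). Both GFP-positive libraries lay above both GFP-negative ones and at nearly the same level. Its coding transcripts alone were at 34.6, 67.3, 38.2 and 62.6 TPM, again high in both GFP-positive libraries.

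Eed (chr7:89954654-89980983, minus strand), which binds trimethylated H3K27 and stimulates EZH2, was at 224, 284, 112 and 282 TPM. The GFP-negative library of the fusion line alone was low, and the ratios were 0.34 and 1.32. Coding transcripts made up only 19.3%, 18.8%, 26.1% and 23.9% of the gene. A 491-nt transcript with a retained intron was at 114, 144, 15.2 and 128 TPM and held most of the difference, and coding transcripts were at 43.2, 53.5, 29.4 and 67.3 TPM, with a ratio of 1.17 in the fusion line.

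Suz12, the scaffold of PRC2, was even at 110, 95.3, 85.8 and 103 TPM. The ubiquitin ligases of PRC1 were at 8.61, 10.0, 6.30 and 11.4 TPM for Ring1 and at 31.5, 35.5, 28.9 and 38.8 TPM for Rnf2. Rnf2 had the higher level per length in every library, and on gene sums neither gene was 2-fold apart between the GFP populations of a line. In the first library all of Ring1 was a 371-nt transcript with a retained intron. The coding transcripts of Ring1 were at 0, 6.92, 5.45 and 7.74 TPM, with ratios of 2.99 and 0.44.

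Transcript length and type moved with the low values of the first library. Among protein-coding transcripts at 5 TPM or more in each of the other libraries, the share listed at 0 in GFP-negative cells of the GFP-only line was 23.9% under 2 kb, 41.0% from 2 to 4 kb, 50.6% from 4 to 6 kb and 59.8% over 6 kb. For the silencing genes it was 13 of 31 coding transcripts, 41.9%, against 37.4% of all. By length these were 2 of 6, 4 of 15, 4 of 6 and 3 of 4. For each other library the same filter, which then required 5 TPM or more in the first library too, left 4206 to 4227 transcripts. Of these 0.284% to 0.404% were at 0. That set is smaller than the 7219 transcripts of the first library, so the shares are not of the same transcripts.

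The long main transcripts of several silencing genes were among those listed at 0 in the first library. The 4622-nt coding transcript of Setdb1 was at 0, 34.96, 29.9 and 41.5 TPM, the 5868-nt one of Hells at 0, 36.4, 31.6 and 39.1 TPM, and the 7052-nt one of Smchd1 at 0, 15.9, 10.9 and 17.4 TPM. The 4373-nt transcript of Suz12 was not among them, at 74.3, 85.1, 69.5 and 97.9 TPM. Over 27 silencing genes at 5 TPM or more in every library, the median coding share was 75.2% in that library and 84.3% to 86.4% in the others; over all 5334 such genes it was 94.0% against 96.9% to 97.2%. The part of length and transcript type in the ratios of the GFP-only line was not tested.

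**Figure D4:**
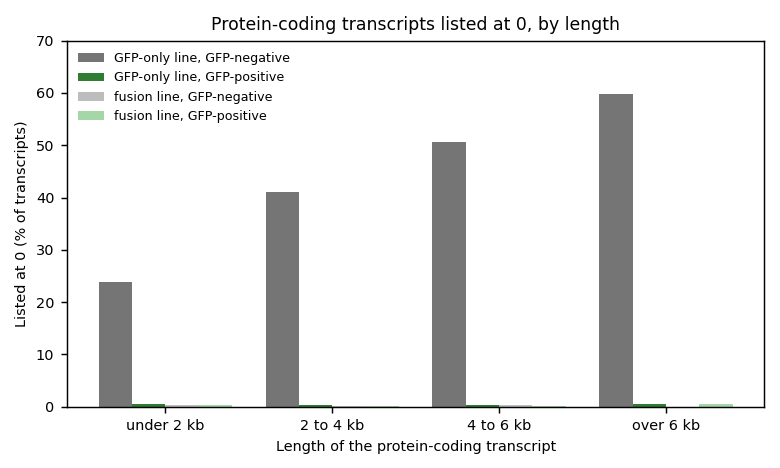
Share of protein-coding transcripts of all genes listed at 0 in each library (bars), among those at 5 TPM or more in each of the other 3 libraries, by transcript length. The set of transcripts therefore differs between libraries. The bars of GFP-negative cells of the GFP-only line rise from 23.9% under 2 kb to 59.8% over 6 kb, and all other bars stay under 1%.

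Of the other genes of these pathways, 88 had a row. In the fusion line 5 of 84 at 5 TPM or more were 2-fold higher in GFP-positive cells, against 8.23% of all genes, and 2 were lower, against 3.14%. In the GFP-only line 30 of 78 were higher, against 33.2%, and 4 lower, against 7.48%, and limma called none at an adjusted p under 0.05. Among 26 other H3K9 and HUSH genes the leading one was Zfp809, a KRAB zinc finger protein that recruits TRIM28 to proviruses, at 0, 30.1, 0 and 39.4 TPM. It was above 0 in GFP-positive cells only, in both lines. Ncl, which encodes nucleolin, was also 2-fold higher in the fusion line, at 85.2, 125, 133 and 293 TPM, and Kdm4b, an H3K9 demethylase, lower, at 43.8, 41.1, 11.8 and 3.96 TPM.

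Next in that list were Cdyl, a chromodomain corepressor, at 0, 10.2, 4.66 and 10.1 TPM, and Suv420h1, an H4K20 methyltransferase, at 10.9, 19.4, 13.7 and 24.1 TPM. Of 10 further histone chaperone genes, none was 2-fold apart in the fusion line, and Nasp, an H3-H4 chaperone, led at 61.7, 119, 105 and 153 TPM. Among the other LSD1, HDAC and NuRD genes Sin3a, an HDAC scaffold, was 2-fold lower in that line, at 55.6, 64.3, 71.3 and 13.0 TPM. It stood out in a single library, the GFP-positive one of the fusion line.

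Of 32 other Polycomb genes, Mtf2, which helps PRC2 to bind DNA, and Pcgf1, of another PRC1, were 2-fold higher in the fusion line, at 77.9, 116, 34.9 and 86.0 TPM and at 13.8, 16.4, 8.67 and 21.9 TPM. Like Eed, both were lowest in its GFP-negative library. Largest in both lines together were Scmh1 at 2.39, 13.7, 7.04 and 13.6 TPM, higher in GFP-positive cells, and Cbx7, a reader of H3K27 methylation in canonical PRC1, at 103, 55.0, 69.7 and 42.1 TPM, lower in them. Kdm6b, an H3K27 demethylase, was also lower, at 55.0, 6.73, 8.88 and 5.30 TPM.

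Genes that these complexes are known to repress were read beside them, and whether the complexes acted on them here was not tested. Of 15 germline genes that non-canonical PRC1 is known to repress, 12 had a row, and 8 of these were 2-fold higher in GFP-positive cells in the GFP-only line, against 23.9% of all genes with no filter on level, and 8 in the fusion line, against 7.14% (6 with quantile normalization). The medians of the list were 2.00 and 1.38, 11 of 12 were higher by any amount in each line (61.3% and 61.9% of all genes), and 10 of 12 were at 0 in the first library. All 8 counted in the GFP-only line were among those at 0, so that count and median rest on zeros not read as absence. The 2 genes above 0 in every library had a median of 0.05 in that line. Dazl, an RNA-binding protein of germ cells, was at 0, 24.1, 8.71 and 31.5 TPM, and Mael, of the piRNA pathway, at 0, 7.43, 0 and 6.25 TPM. Ddx4, a germ cell helicase, was at 0, 3.20, 0.59 and 2.97 TPM, and Tdrkh, a Tudor protein of that pathway, at 0, 4.06, 0 and 2.75 TPM. Apart from Dazl these were low in every library. The 4 were named for the largest ratios shared by both lines, so their higher values in GFP-positive cells follow from that choice. Others of the list were level in a line: Tuba3a had ratios of 0.03 and -0.03, and Stag3 a ratio of 0.07 in the GFP-only line.

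E2F6 is known to bind TCCCGC and the MGA-MAX dimer the E-box CACGTG, and both were searched on both strands in the 250 bases before each start in RefSeq (GRCm38.p6). CACGTG was in 9 of 15 germline genes (60%), against 6.86% of 27025 genes, and TCCCGC in 7 (46.7%), against 18.8%. Both were in 4 (26.7%), against 1.69%: Mael, Sycp3, Ddx4 and Hormad1, a protein of meiotic chromosome axes at 0, 2.80, 4.37 and 9.47 TPM. Dazl and Tdrkh held neither. Of the silencing genes themselves 33 matched the table, and 3 held CACGTG (9.09%) and 13 TCCCGC (39.4%). A match is a string in the window, not a measured site. The germline genes were listed as known targets of this complex, so their shares say nothing about the libraries. The shares over all genes were not matched for base composition. The promoters of 3 of the 4 genes with both strings are shown 5′ to 3′ on the gene's strand, with the matches in capitals (GCGGGA is TCCCGC on the other strand): Mael at chr1:166238745-166238994 (minus strand), Sycp3, of the synaptonemal complex and at 0, 4.48, 2.05 and 5.65 TPM, at chr10:88459337-88459586 (plus strand), and Ddx4 at chr13:112652311-112652560 (minus strand).
Mael: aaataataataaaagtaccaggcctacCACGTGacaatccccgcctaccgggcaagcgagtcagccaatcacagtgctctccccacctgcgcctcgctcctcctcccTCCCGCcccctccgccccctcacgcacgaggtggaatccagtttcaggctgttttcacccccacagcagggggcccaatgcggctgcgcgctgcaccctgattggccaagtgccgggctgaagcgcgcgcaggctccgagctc
Sycp3: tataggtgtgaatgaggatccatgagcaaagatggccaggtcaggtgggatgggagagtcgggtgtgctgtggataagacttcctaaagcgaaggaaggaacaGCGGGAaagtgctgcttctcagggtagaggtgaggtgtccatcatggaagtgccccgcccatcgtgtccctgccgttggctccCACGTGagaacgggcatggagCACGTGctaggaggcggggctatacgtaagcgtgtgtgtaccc
Ddx4: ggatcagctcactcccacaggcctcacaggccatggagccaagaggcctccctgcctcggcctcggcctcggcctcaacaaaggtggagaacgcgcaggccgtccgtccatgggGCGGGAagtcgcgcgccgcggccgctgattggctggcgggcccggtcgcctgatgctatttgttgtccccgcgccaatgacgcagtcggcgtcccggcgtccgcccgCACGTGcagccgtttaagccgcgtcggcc
The E-box starts 223 bases before the start of Mael, 64 and 43 before that of Sycp3 and 29 before that of Ddx4, and TCCCGC 143, 147 and 136 bases before.

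Developmental genes that PRC2 is known to repress had smaller median ratios than the germline genes. In the GFP-positive libraries (GFP-only, then fusion line) their median levels were 0.82 and 0.86 TPM, against 4.27 and 6.29 for the germline genes. The pseudocount of 1 TPM draws ratios at such low levels towards 0. The sizes of the medians of these lists therefore cannot be compared. Of 20 developmental genes, 12 had a row, 10 of them at 0 in the first library. The median was 0.64 in the GFP-only line and 0.18 in the fusion line, where quantile normalization gave -0.05, and 4 of 12 were 2-fold higher in the former, against 23.9% of all genes with no filter. All 4 were at 0 in the first library, and the 2 genes above 0 in every library had a median of -0.15 in the GFP-only line. In the fusion line 2 of 12 were 2-fold higher, against 7.14%: Gata4, of the endoderm, at 0, 1.64, 0 and 2.13 TPM, and Hoxd13, of the limb, at 0, 5.91, 2.16 and 6.16 TPM. The other 10 were at ratios between -0.33 and 0.65 there.

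Several silencing genes, CAF-1 among them, are transcribed with the cell cycle, so cycle genes were read beside them. The 20 S phase genes had medians of -0.18 and 0.03 (-0.13 in the fusion line with median-ratio scaling), and the 16 G2 and M phase genes 0.94 and 0.30. In the fusion line all 16 of the latter were higher in GFP-positive cells, against 67.8% of all genes, 15 with each other scaling, Cenpe most, a kinesin of the kinetochore at 13.1, 23.6, 5.39 and 28.4 TPM. Top2a, the topoisomerase of dividing cells, was at 82.4, 242, 228 and 335 TPM. The part of the cell cycle in the differences of the silencing genes was not tested.

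**Figure D5:**
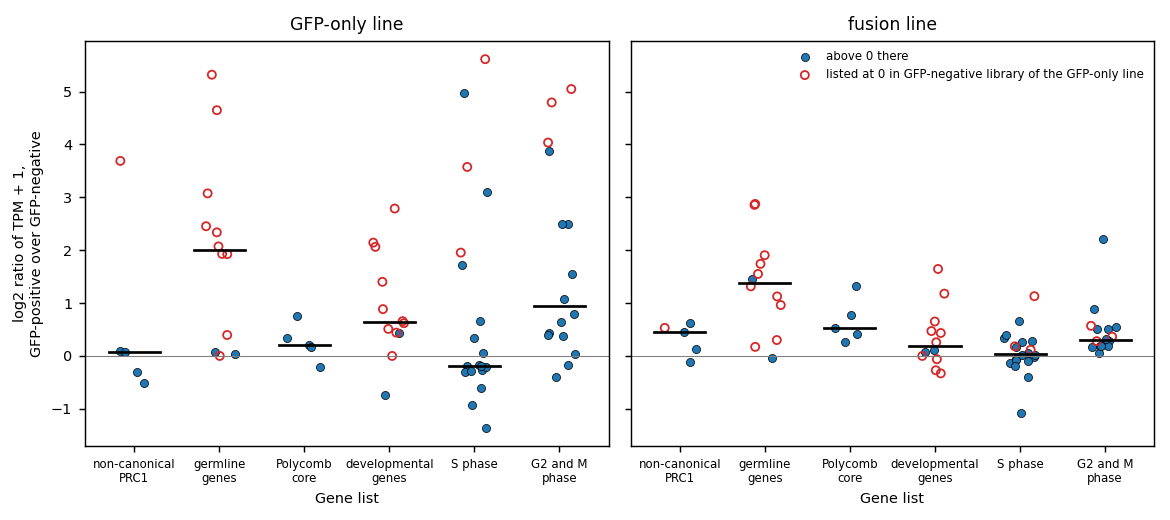
Ratio of GFP-positive over GFP-negative cells on the log2(TPM + 1) scale for each gene of 6 lists in the GFP-only line (left) and the fusion line (right). Red open circles are genes listed at 0 in GFP-negative cells of the GFP-only line and black bars are medians. The germline bar is at 2.00 and 1.38 and the S phase bar at -0.18 and 0.03. The lists differ in level and in genes listed at 0, so the sizes of their bars cannot be compared.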

How the data were processed

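The deposited tables give TPM per transcript, which the authors made with CASAVA, HISAT2 2.1.0 and StringTie 1.3.5 on GRCm38 (mm10), per the submitters' processing notes. Their options, the annotation release and the choice of the 58853 listed transcripts were not given in the sources used here. The listed TPM summed to 66.6% to 69.1% of a full scale, and TPM keep no counts, so read depth is unknown and no counting interval is given.

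TPM were summed per symbol (Python 3.11.15, pandas 2.3.3), with a pseudocount of 1 TPM. Positions, lengths and transcript types came from GENCODE M21, which held 58388 of the transcripts. A gene entered a count of 2-fold differences if one of the compared libraries reached 5 TPM. limma 3.58.1 in R 4.3.3 (trend and robust, two-sided, Benjamini-Hochberg) used genes that reached 1 TPM in 2 libraries or more, with GFP status and line as terms and 1 residual degree of freedom. It was tested on simulated data. The members, lists and promoter motifs were chosen with earlier results of these data known. Detail was given to members 2-fold apart in both lines, or above 0 in all libraries and 2-fold apart in either; Ezh2, Rif1, Ehmt2, Chaf1b and Mga were singled out after their values were seen. Of other lists, up to 4 genes with the largest ratio shared by both lines were named, and genes 2-fold apart in the fusion line with Sycp3 and Hormad1 after their values were seen. One of these genes is not reported here. Alternatives changed pseudocount, filter, scaling, the line term, the libraries used and, chosen after seeing the data, the transcripts summed (protein-coding ones only). Because TPM are shares, a change in other transcripts moves every value.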

Additional observations from a re-analysis of the deposited data

Results flagged for a closer look

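Mga, the large DNA-binding partner of MAX in non-canonical PRC1, was the only one of 34 silencing genes whose ratios had opposite signs in the 2 lines and were both larger than 0.32 in size on the log2 scale. It was at 60.9 and 42.2 TPM in GFP-negative and GFP-positive cells of the GFP-only line (log2 ratio -0.52) and at 48.4 and 74.9 TPM in those of the fusion line (0.62), a difference between ratios of 1.14. With 1 library per population the difference was not tested. On protein-coding transcripts alone the ratio in the GFP-only line was 3.46, with the GFP-negative library listed at 0.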

How the results depend on the processing

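Counts of silencing genes 2-fold apart in the fusion line, 4 as reported, were 1 with a pseudocount of 5 TPM, 1 with median-ratio scaling (Eed in both), and 2 with quantile normalization and with protein-coding transcripts only (Eed higher, Chaf1b lower in both) and with listed TPM rescaled to a full TPM scale (Eed and Suv39h1 higher). Among genes above 0 in all libraries, the count was 9 instead of 14 in the GFP-only line and 6 instead of 10 between GFP-negative cells, since genes at 0 left the count. limma called 3 genes with quantile normalization, where it called 328 of all genes, and the cause was not tested. Leaving out 1 library at a time, it called 0 to 14. The 14 came without the GFP-negative library of the fusion line, when the zero-rich library was the only GFP-negative one and 4204 of all genes were called; the lone library is then assumed to vary like the others. Without the line term, that is without pairing the libraries of a line (no replicate block), limma called 0. The labels give no replicate numbers beyond the line. Both medians of the silencing genes kept their sign in every alternative run. That of the GFP-only line, 0.32, became 0.20 among genes above 0 in all libraries and 0.55 with protein-coding transcripts only. That of the fusion line, 0.27, became 0.12 with median-ratio scaling and 0.15 with quantile normalization. The cause was not tested. TPM hold no depth, so low values such as those of Suv39h1 carry no counting error here.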
